A study of Homo sapiens with 8 samples.

Results

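KDM2A, KDM2B, KDM4A, KDM4B and KDM4C are the 5 demethylase genes described here, 5 of 19821 protein-coding genes placed on chromosomes 1 to 22 and X of GRCh38. They were taken by name, not by any measured value. Each was examined over its annotated span plus 50 kb on either side, called its window below, and the 5 windows together spanned 1507 kb. The peak lists come from human neural progenitor cells that were differentiated from the embryonic stem cell line H9. The stem cells were infected with lentivirus (multiplicity of infection 20) and selected with puromycin (1 µg/ml) before differentiation. They carried the control construct (NC) or a hairpin against KDM2A, named sh1 or sh4. H3K36me2 was precipitated from NC, sh1 and sh4 cells, and the KDM2A protein from NC cells only, with 1 library per group, so no test between groups was possible and intervals cover counting error only. The labels do not say whether the lines were clones or pools. Peak lists hold no expression values, so neither the neural progenitor label nor the depth of the knockdown could be checked in them.

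These enzymes share a JmjC domain, which removes methyl groups from histone lysines by oxidation. KDM2A and KDM2B act on H3K36me2 and carry a CXXC zinc finger that binds unmethylated CG pairs, and KDM2B also brings a variant Polycomb repressive complex to CpG islands. KDM4A, KDM4B and KDM4C have no CXXC finger, read other histone marks through PHD and Tudor domains, and demethylate H3K9 and H3K36. H3K36me2 itself is laid down mainly by the NSD methyltransferases and typically spreads over broad stretches within and between genes.

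KDM2A (gene 22992, chromosome 11, 67119263 to 67258082, forward strand) is the gene that both hairpins target, and its protein is the one that was precipitated. KDM2B, its paralogue (gene 84678, chromosome 12, 121408461 to 121582279), lies on the reverse strand. KDM4A (gene 9682, chromosome 1, 43650149 to 43705518), KDM4B (gene 23030, chromosome 19, 4969113 to 5153598) and KDM4C (gene 23081, chromosome 9, 6720863 to 7175648) all lie on the forward strand. KDM4C has the longest window at 555 kb and KDM4A the shortest at 155 kb. Exon positions were not used here, so a peak inside a gene is given as lying in its body.

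The RefSeq promoter sequences (GRCh38.p14, 250 bases before to 50 after a start) matched all 5 genes and gave 9 starts, namely 2 for KDM2A, 4 for KDM2B and 1 for each KDM4 gene. Starts are numbered in the direction of transcription. The following 5 are shown to set the 3 starts richest in CG, none of which had a KDM2A peak within 500 bp, beside 2 starts with fewer CG pairs and a peak within that distance (KDM2A start 2 and KDM2B start 3). Each is written 5′ to 3′ on the gene's own strand, and capitals mark every CG pair.
KDM2A start 1 (chr11:67119013-67119312, forward): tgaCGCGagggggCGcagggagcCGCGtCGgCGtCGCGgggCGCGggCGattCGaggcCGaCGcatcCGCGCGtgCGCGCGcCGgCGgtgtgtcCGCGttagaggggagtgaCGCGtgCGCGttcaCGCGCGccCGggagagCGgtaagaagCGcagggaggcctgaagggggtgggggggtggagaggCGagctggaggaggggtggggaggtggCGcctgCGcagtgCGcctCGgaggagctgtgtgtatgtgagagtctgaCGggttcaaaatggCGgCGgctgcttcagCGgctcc
KDM2A start 2 (chr11:67239764-67240063, forward): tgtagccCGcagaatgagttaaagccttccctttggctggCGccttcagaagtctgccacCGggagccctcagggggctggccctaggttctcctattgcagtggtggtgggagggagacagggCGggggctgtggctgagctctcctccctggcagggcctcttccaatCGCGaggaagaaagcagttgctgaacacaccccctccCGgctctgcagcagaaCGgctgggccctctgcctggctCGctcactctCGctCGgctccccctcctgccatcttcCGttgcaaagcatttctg
KDM2B start 3 (chr12:121579610-121579909, reverse): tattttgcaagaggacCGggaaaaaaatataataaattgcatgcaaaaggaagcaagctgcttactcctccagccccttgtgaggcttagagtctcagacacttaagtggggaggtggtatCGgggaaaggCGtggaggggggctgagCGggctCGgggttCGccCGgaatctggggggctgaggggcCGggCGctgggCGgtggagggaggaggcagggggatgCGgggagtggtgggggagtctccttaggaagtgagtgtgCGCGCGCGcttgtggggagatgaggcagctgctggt
KDM2B start 4 (chr12:121467329-121467628, reverse): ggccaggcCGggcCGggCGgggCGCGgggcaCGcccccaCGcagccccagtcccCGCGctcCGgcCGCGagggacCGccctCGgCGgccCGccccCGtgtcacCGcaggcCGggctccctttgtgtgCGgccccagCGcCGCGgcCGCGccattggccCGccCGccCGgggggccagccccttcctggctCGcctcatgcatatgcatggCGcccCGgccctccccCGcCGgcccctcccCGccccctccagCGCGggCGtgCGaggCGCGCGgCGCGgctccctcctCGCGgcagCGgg
KDM4B start 1 (chr19:4968863-4969162, forward): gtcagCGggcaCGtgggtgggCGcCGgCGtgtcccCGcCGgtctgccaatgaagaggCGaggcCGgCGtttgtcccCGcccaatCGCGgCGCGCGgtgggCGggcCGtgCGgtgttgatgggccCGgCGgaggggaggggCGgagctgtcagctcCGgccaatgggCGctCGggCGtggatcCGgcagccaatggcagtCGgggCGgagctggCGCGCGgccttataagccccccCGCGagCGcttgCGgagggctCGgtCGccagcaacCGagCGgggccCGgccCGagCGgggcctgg

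The pair CG reads the same on both strands and is held by 98.1% of the 22132 promoters of protein-coding genes, so its number is the informative value. These promoters come from 15812 of the 19821 protein-coding genes, and shares of all starts refer to them alone. KDM2A start 1 had 44 CG pairs, more than the median of 21 and at percentile 95.5 of all these promoters. KDM2A start 2, which lies inside the gene at 67240014, had 12 (percentile 34.7). KDM2B start 4, also internal, had 46 (percentile 96.9), KDM2B start 3 had 15 and KDM4B had 43 (percentile 94.6). The starts not printed had 15 at KDM2B start 1, 33 at KDM2B start 2, 21 at KDM4A and 29 at KDM4C.

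Where the KDM2A protein lay relative to its own gene was the first comparison. The upstream start of KDM2A had no KDM2A peak nearby, whereas the internal start lay inside a peak. The peak nearest to start 1 began 3.24 kb downstream (67122499 to 67123028), with a fold enrichment over local background of 1.73, a pileup of 9 stacked fragments and an FDR of 0.839 from the authors' peak caller. Start 1 sat in a stretch of 20.3 kb without any peak, and 11.0% of all protein-coding starts lay in a peak-free stretch at least that long (median 6.73 kb). The internal start was covered by the peak spanning 67239605 to 67240152 (fold 2.82, pileup 9, FDR 0.227). A peak covered 11.4% of all starts. Neither peak passed an FDR of 0.05, a limit that the deposited list itself does not apply, since its FDR values reach 0.869.

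At KDM2B the KDM2A protein had a peak near 3 of 4 starts. These 3 lie close together at the 5′ end of the gene, with peaks in common, and are not separate observations. The nearest peak lay 174 bp from start 1 (fold 2.58, FDR 0.324), 872 bp from start 2 and 285 bp from start 3, where the last 2 refer to the same peak (121579077 to 121579374, fold 2.37, FDR 0.437). A stronger peak spanning 121578679 to 121578888 (fold 3.80, pileup 12, FDR 0.0140) lay 771 bp downstream of start 3 and 1.36 kb downstream of start 2. The internal start 4 had no peak within 6.19 kb and sat in a peak-free stretch of 19.8 kb. KDM2B-DT, a non-coding transcript that diverges from the KDM2B promoter region, starts between KDM2B starts 1 and 2.

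Each of the KDM4 genes had 1 start, with a peak that did not pass an FDR of 0.05 nearest to it. At KDM4A a peak with a fold of 2.29 and a pileup of 10 lay 363 bp downstream of the start (43650512 to 43650672, FDR 0.437). At KDM4B a peak with a fold of 1.68 and a pileup of 6 lay 1.04 kb downstream (FDR 0.839). At KDM4C a peak with a fold of 2.06 and a pileup of 7 lay 1.27 kb upstream (6756498 to 6756703, FDR 0.630). That start, at 6757973, lies inside the annotated span of KDM4C, which begins further upstream at 6720863.

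Over the family, 7 of 9 starts had any KDM2A peak within 2 kb, beside 65.6% of all protein-coding starts. With an FDR under 0.05 the count was 2 of 9, both at KDM2B and both from the same peak, beside 3.19%. The 3 starts with 40 or more CG pairs (KDM2A start 1, KDM2B start 4 and KDM4B) had no peak within 500 bp, while 4 of the other 6 did. Over all starts the order was the opposite, since a peak lay within 500 bp of 46.4% of the 2174 starts with 40 or more CG pairs and of 37.6% of the rest. The division at 40 was made after the values had been seen, and the 9 starts come from 5 genes, so this is a description of these loci and no test was made.

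**Figure D1:**
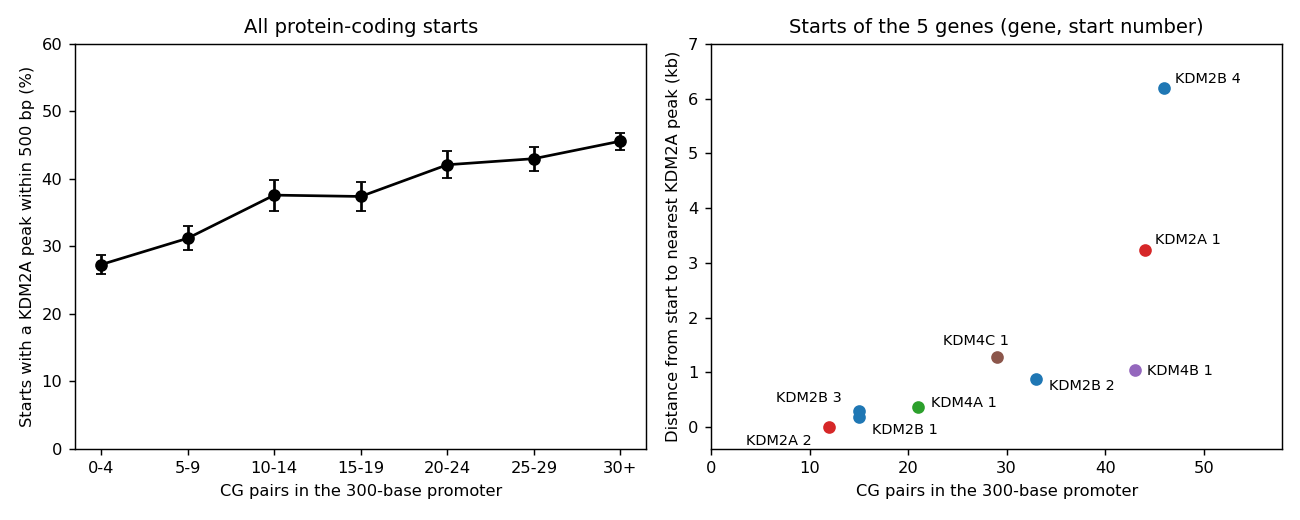
Left, the percent of all protein-coding starts with a KDM2A peak within 500 bp, by the number of CG pairs in the 300-base promoter, with 95% exact binomial intervals; it was 27.3% at 0 to 4 pairs and 45.6% at 30 or more. Right, each of the 9 starts of the demethylase genes by its CG pairs and its distance in kb to the nearest KDM2A peak; the internal KDM2A start lies at 0 kb with 12 pairs and KDM2B start 4 at 6.19 kb with 46.

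Over whole windows, KDM2A peak density at its own gene and at the relatives did not depart from the genome beyond counting error. The KDM2A window held 45 peaks, or 18.8 per 100 kb (95% Poisson interval 13.7 to 25.2), and the KDM2B window 45, or 16.4 (12.0 to 22). The KDM4A window held 31 peaks (20.0 per 100 kb, 13.6 to 28.3). There were 54 at KDM4B (19.0, 14.3 to 24.8) and 106 at KDM4C (19.1, 15.6 to 23.1). All 5 intervals overlapped each other and held the genome's 17.3 peaks per 100 kb, so the order from KDM4A down to KDM2B is within counting error.

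Among all gene windows, whose median was 19.8 peaks per 100 kb, the 5 genes lay between percentile 31.0 (KDM2B) and 50.9 (KDM4A). Together the 281 peaks gave 1.08 times the density of the genome (0.956 to 1.21). Gene bodies and flanks did not separate either. In KDM2A the body held 26 peaks (18.7 per 100 kb, 12.2 to 27.4) and the flanks 19 (19.0, 11.4 to 29.7). The widest gap was at KDM2B, with 33 in the body (19.0, 13.1 to 26.7) and 12 in the flanks (12.0, 6.20 to 21.0), and those intervals overlapped.

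**Figure D2:**
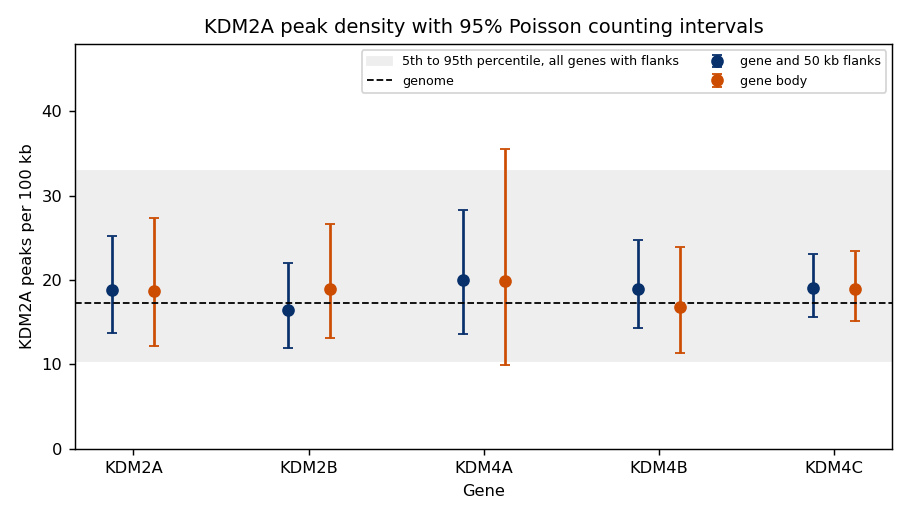
KDM2A peaks per 100 kb for each gene with its 50 kb flanks (blue) and for the gene body (orange), with 95% Poisson intervals for counting error. The dashed line is the genome at 17.3 and the grey band the 5th to 95th percentile of all gene windows, 10.4 to 32.9; every point lies inside the band.

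The peaks that passed an FDR of 0.05 were few. There were 7 in all, of 281 (2.49%, against 3.13% in the whole list), 4 of them at KDM4C, 2 at KDM2B, 1 at KDM4A and none at KDM2A or KDM4B. So 3 of 5 windows held such a peak, near the background of 56.6% of all gene windows. Among windows within 1.5 times the length of the KDM2A window, 64.6% held at least 1, and for KDM4B this share was 69.7%. Their density over the 5 windows was 0.874 times that of the genome, with a wide interval (0.351 to 1.80). By gene the ratio ran from 0 at KDM2A (0 to 2.91) and KDM4B (0 to 2.44) to 1.37 at KDM2B (0.166 to 4.97), with 1.36 at KDM4C (0.370 to 3.47), the longest window. All 5 intervals held 1 and overlapped, so the genes did not differ beyond counting error. The strongest peaks short of the limit were, at KDM2A, a peak in the body at 67191004 to 67191377 (fold 3.34, pileup 11, FDR 0.0644) and, at KDM4B, a peak in the body at 5138650 to 5138831 (fold 3.14, pileup 11, FDR 0.0929).

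KDM4C, a demethylase gene that is amplified in some cancers, carried the strongest KDM2A peaks of the family. The highest lay in the body at 6806401 to 6806639, 48.5 kb downstream of the start, with a fold of 5.36, a pileup of 17 and an FDR of 4.64e-06. It ranked 375th by fold among the 502659 peaks on these chromosomes. The second, at 7031079 to 7031431, had a fold of 4.56, a pileup of 14 and an FDR of 4.83e-04. The other 2 that passed lay at 7058177 to 7058659 (fold 3.79, FDR 0.0214) and at 6763791 to 6763949 (fold 3.35, FDR 0.0454), the latter 5.90 kb downstream of the start. All 4 lay outside the H3K36me2 regions of NC, sh1 and sh4.

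At the other genes the peaks that passed were fewer and lay partly beyond the gene. Besides the peak near its starts, KDM2B had a peak at 121389059 to 121389559 in its downstream flank, within the non-coding gene LOC124903037 (fold 3.63, pileup 13, FDR 0.0159). For KDM4A the peak lay 19.8 kb upstream of the start at 43630220 to 43630491, in no annotated gene (fold 3.69, pileup 12, FDR 0.0188). A median peak of the whole list had a fold of 2.33 and a pileup of 8, and the median pileup was 8 in each of the 5 windows too.

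**Figure D3:**
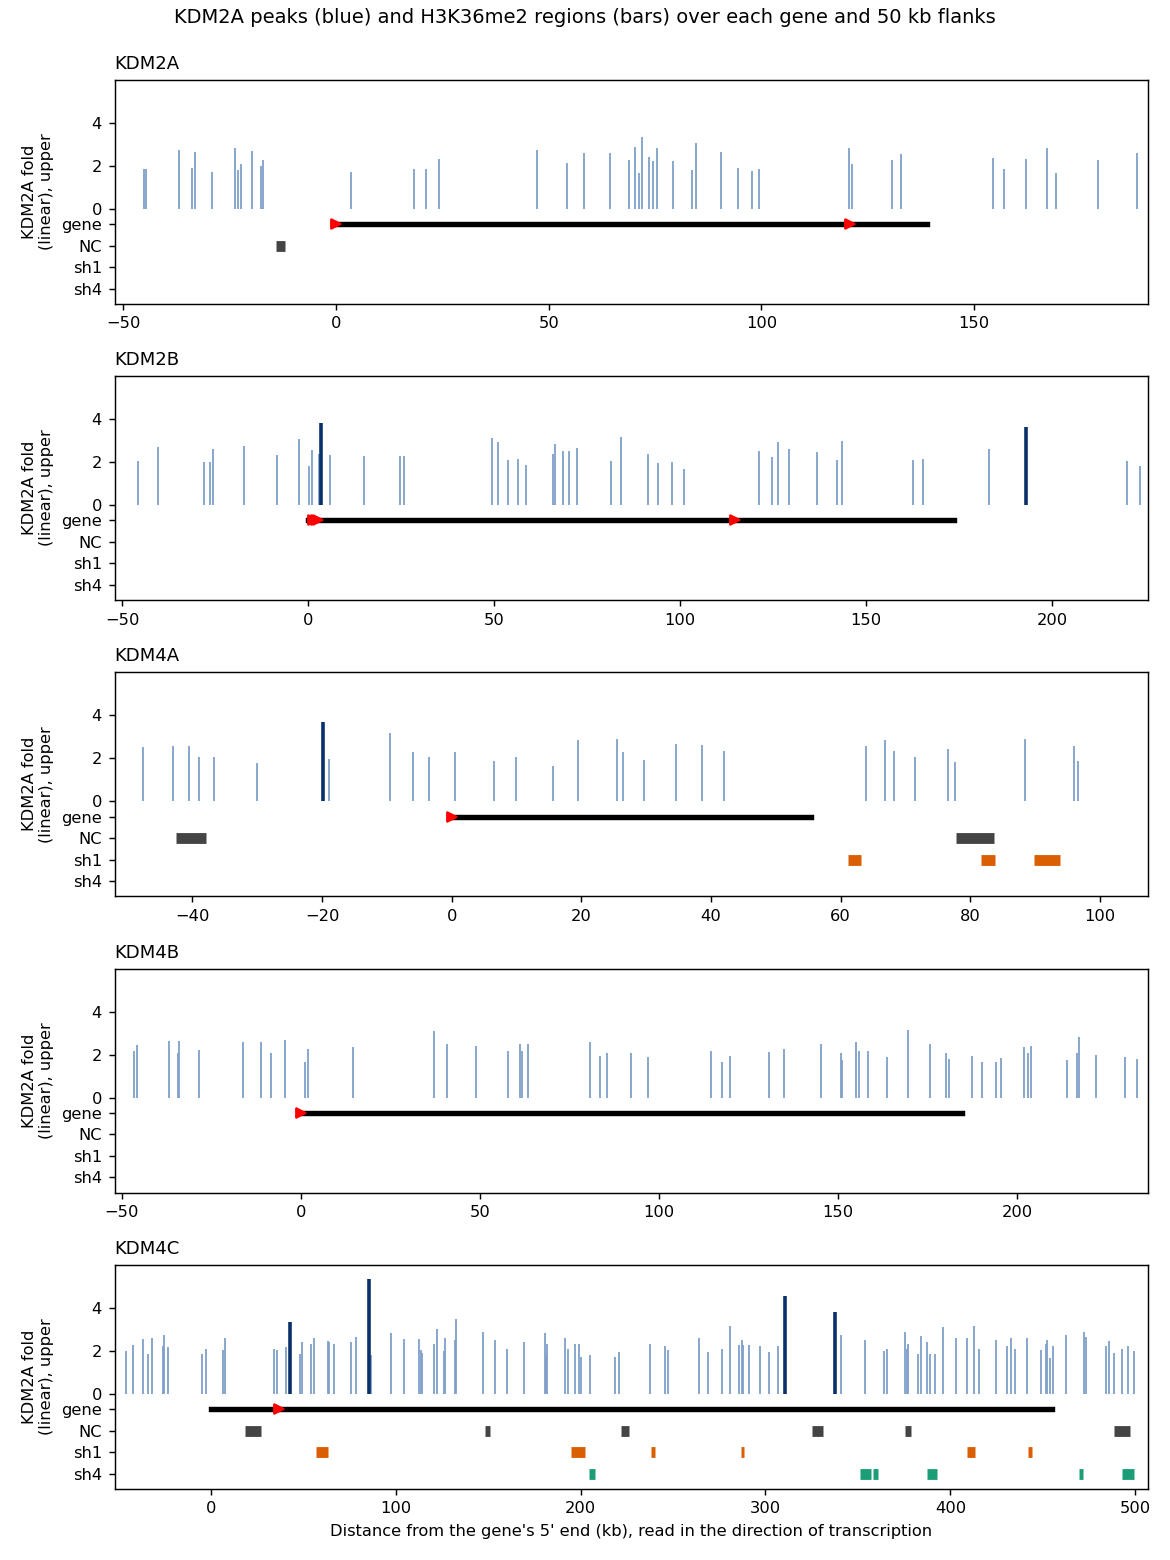
Maps of the 5 windows, with the distance in kb from the gene's 5′ end read in the direction of transcription. Blue lines are KDM2A peaks with height as linear fold (dark blue, FDR under 0.05). The black bar is the gene and red arrowheads are RefSeq starts. Bars below are H3K36me2 regions of NC, sh1 and sh4. Of the 5 genes, only KDM4C has regions in its body, and the windows of KDM2B and KDM4B have none. Those beside KDM4A lie in PTPRF and ST3GAL3.

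H3K36me2 at these loci in the control and the hairpin libraries was the second comparison. The mark was called inside the body of KDM4C alone, and beside KDM4A and, in NC only, upstream of KDM2A. KDM2B and KDM4B had no region in any of the 3 libraries. A region lay in 3 of 5 windows in NC, 2 in sh1 and 1 in sh4, beside 41.7%, 31.0% and 28.7% of all gene windows. It lay in 1 of 5 bodies in each library, beside 20.0%, 16.2% and 15.4% of all gene bodies, and 4 of 5 bodies had none in all 3 libraries, beside 70.6%. Among genes with windows within 1.5 times the length, bodies without a region were rarer except for KDM4A. That share was 33.2% for KDM2A, 24.7% for KDM2B, 75.9% for KDM4A, 22.6% for KDM4B and 4.99% for KDM4C. The windows held 9 regions in NC, 9 in sh1 and 6 in sh4. Regions covered 3.05% of the 5 windows in NC, 2.18% in sh1 and 1.75% in sh4, and 3.50%, 3.24% and 3.85% of the genome in the same order. The median region of each whole list held 162 immunoprecipitated (IP) reads and 99 input reads in NC. The corresponding medians were 151 and 89 for sh1, then 156 and 92 for sh4. A fold here is the ratio of IP to input reads after the authors' scaling, with a 95% interval for counting error.

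At the targeted gene, 0% of the KDM2A body lay in H3K36me2 regions in NC, sh1 and sh4. Its only region was in NC at 67105201 to 67107400, 11.9 kb upstream of start 1 in no annotated gene. It was 2200 bp wide, with 108 IP and 54 input reads and a fold of 1.97 (1.41 to 2.78), at percentile 91.4 of the folds in the NC list. No KDM2A peak lay in it, the nearest being 3033 bp away. In the hairpin libraries no region was called in the window, and the nearest lay 331 kb from the gene in sh1 and 987 kb in sh4. Over all genes the median distance to the nearest region was 80.6 kb in NC, 182 kb in sh1 and 213 kb in sh4. Window coverage was thus 0.921%, 0% and 0%, the difference between the libraries resting on that 1 called region.

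KDM4B lay further from H3K36me2 regions than most genes, and KDM2B less so. From KDM2B the nearest region was 312 kb away in NC, 220 kb in sh1 and 545 kb in sh4, and 22.5%, 46.8% and 33.8% of all genes lay at least as far. For KDM4B the distances were 516 kb, 3717 kb and 4318 kb, and 14.3%, 6.58% and 5.90% of all genes lay at least as far from a region of NC, sh1 and sh4. Having no region in all 3 libraries was common over all gene windows (45.6%) and less so among windows of like length, within 1.5 times, at 15.6% for KDM2B and 14.1% for KDM4B.

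Around KDM4A the mark was called only beyond the gene. The body was at 0% in each library, and the window at 6.69% in NC, 5.28% in sh1 and 0% in sh4. In NC a region of 4600 bp lay 37.9 kb upstream in PTPRF, a receptor tyrosine phosphatase gene (190 IP and 119 input reads, fold 1.57, 1.24 to 1.99). A second of 5800 bp lay 22.5 kb downstream in the sialyltransferase gene ST3GAL3 at 43728001 to 43733800 (177 and 120 reads, fold 1.45, 1.14 to 1.85). All 3 sh1 regions lay in ST3GAL3 too, with folds of 1.53 to 1.80. The sh1 region at 43731801 to 43734000 (89 and 49 reads, fold 1.80, 1.25 to 2.60) shared 2000 bp with the second NC region, and the intervals of their folds overlapped. In sh4 the nearest region was 175 kb from the gene.

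KDM4C held regions in every library, and those in its body lay at different places in each. In NC 5 regions lay in its body and 1 in the downstream flank, in sh1 6 in the body, and in sh4 4 in the body and 2 downstream. Body coverage was 5.45% in NC, 5.41% in sh1 and 3.83% in sh4, and window coverage 6.02%, 4.43% and 4.76%. The 15 body regions shared 0 bp between any pair of libraries, and together they covered 14.7% of the gene. Among windows of like length, 89.2% held a region in NC, 85.0% in sh1 and 82.0% in sh4, so regions at a gene this long were usual.

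The widest NC region in the KDM4C body lay at 6739601 to 6748000, between the 5′ end of the annotated span and the start at 6757973. It held 310 IP and 193 input reads (fold 1.58, 1.32 to 1.90). No other NC body region had a fold above 1.71. Folds in the body ran in sh1 from 1.38 to 2.16 and in sh4 from 1.46 to 1.70. The highest of the body was the sh1 region at 6958801 to 6961000, with 105 IP and 48 input reads (fold 2.16, 1.52 to 3.11). The intervals of all these body regions overlapped.

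Downstream of KDM4C lay the only place in the 5 windows where an NC and an sh4 region coincided. The NC region at 7209201 to 7217800 (341 IP and 244 input reads) had a fold of 1.38 (1.16 to 1.63), and the sh4 region at 7213401 to 7220200 (255 and 113 reads) one of 2.23 (1.78 to 2.81). They shared 4400 bp, and the intervals of their folds did not overlap. Each fold was measured over its own region, 8600 bp in NC and 6800 bp in sh4, and not over the shared stretch. The folds therefore do not compare the libraries at 1 place, and with 1 library each no difference between NC and sh4 can be read from them. A further sh4 region at 7190401 to 7192600, 14.8 kb beyond the gene, had the highest fold of all 24 regions, 2.63 (1.76 to 3.99), from 93 IP and 35 input reads. That is percentile 97.8 of the sh4 list.

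**Figure D4:**
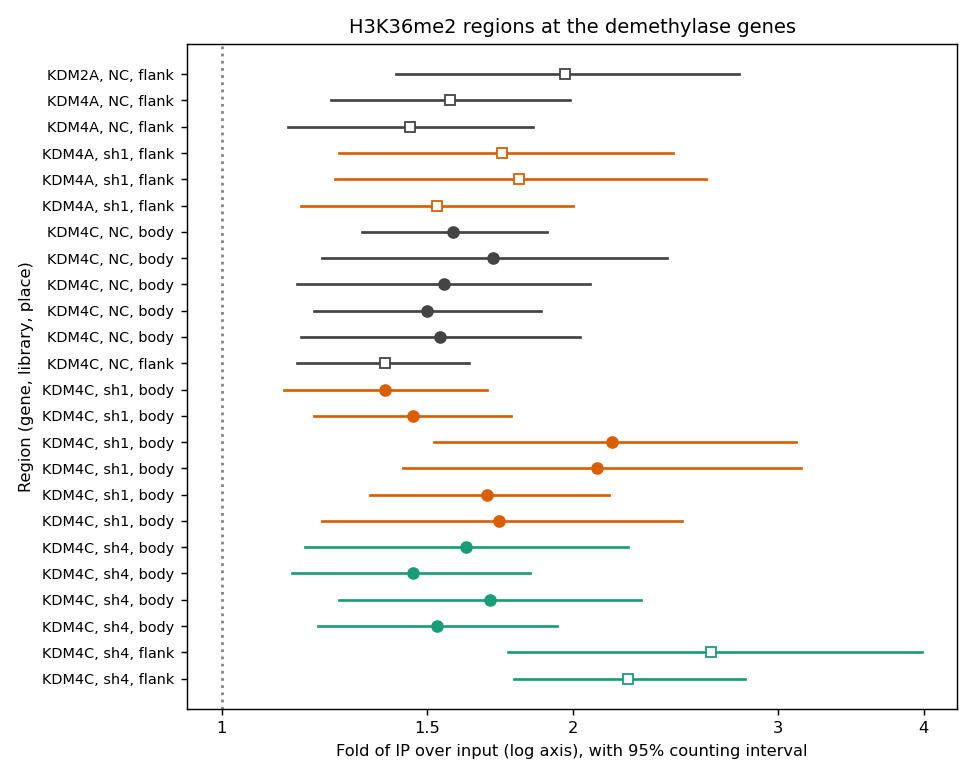
Linear fold of IP over input (log axis) for each of the 24 H3K36me2 regions in the 5 windows, with 95% counting intervals from the recovered reads; filled circles lie in a gene body and open squares in a flank. The sh4 regions downstream of KDM4C, at 2.63 and 2.23, lie furthest to the right.

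Window coverage was below NC in both hairpins for 3 of the 5 genes (KDM2A, KDM4A and KDM4C) and above it for none, beside 26.2% and 8.54% of all gene windows. The direction depended on which regions were counted. With only regions at or above the NC median fold of 1.59, coverage of the 5 windows was 0.305% in NC, 1.01% in sh1 and 0.995% in sh4. This limit comes from NC itself and favours the hairpins. Over the whole lists it kept 9852 regions of NC, 11918 of sh1 and 13090 of sh4. Coverage of the genome under the same limit is not given here. KDM2A alone remained below NC in both hairpins, where its coverage was 0% already. KDM4C then stood at 0.433%, 1.98% and 2.70%, and KDM4A at 0%, 2.70% and 0%. The gap between NC and sh1 also closed with 20 kb flanks (2.24% and 2.20%) and over gene bodies (2.46% and 2.44%). The flank mattered for KDM4A too, whose coverage was 0%, 2.10% and 0% with 20 kb flanks and 4.07%, 7.91% and 0% with 100 kb. Median folds of the whole lists were 1.59 in NC and 1.65 in both hairpins, and their part in these values was not tested. With 1 library per group, hairpin and library cannot be told apart.

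**Figure D5:**
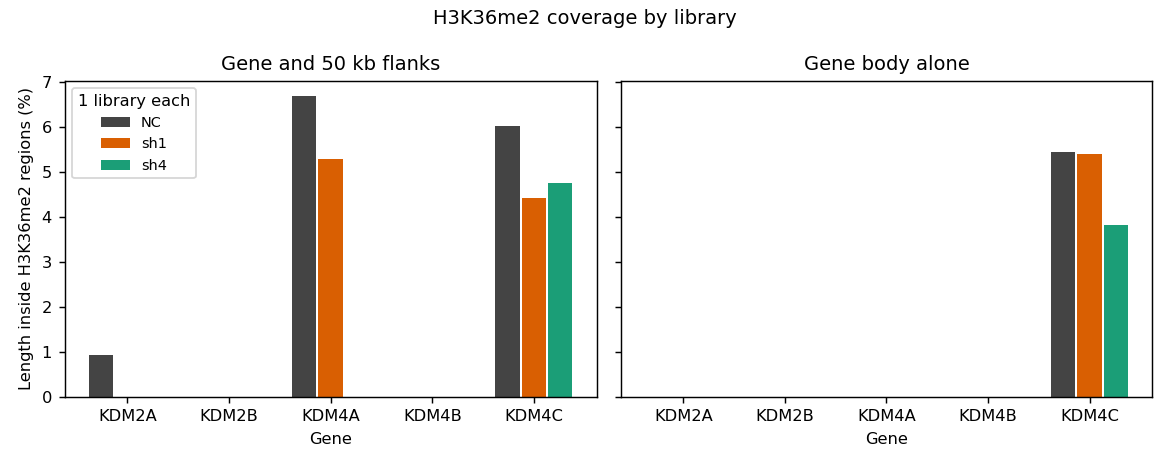
Percent of the length of each gene with 50 kb flanks (left) and of each gene body (right) inside H3K36me2 regions, for NC, sh1 and sh4, 1 library each and therefore without error bars. Bars are absent at 0%; in gene bodies only KDM4C has bars, at 5.45%, 5.41% and 3.83%.

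Shared length was small in these windows as in the genome. NC and sh1 shared 2.00 kb, which is 4.35% of the NC length there and 6.10% of that of sh1, beside 9.67% and 10.4% over the genome. NC and sh4 shared 4.40 kb (9.57% and 16.7%, beside 8.68% and 7.87%). The sh1 and sh4 libraries shared 0 bp (genome 11.3% and 9.53%). Of the 281 KDM2A peaks, 8 had their midpoint in an NC region, or 17.4 per 100 kb of region (7.51 to 34.3) against 18.7 outside. The density was 21.3 in sh1 regions (8.58 to 44.0) against 18.6, and 30.3 in sh4 regions (13.1 to 59.7) against 18.4. Each interval held the density outside.

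Gene density differed among the loci. KDM4C, with the fewest neighbours and also the longest body and window, was the only gene with regions in its body and in every library. Among genes with windows of like length, 4.99% had no region in the body in all 3 libraries. The other genes had 0% of the body covered, and their window coverage in NC did not follow the order of their neighbour counts. Within 500 kb of its midpoint KDM2A had 33 other protein-coding genes, KDM4A 21, KDM2B 14, KDM4B 10 and KDM4C 2. Of all genes with 10 or more such neighbours, 63.9% had no region in their window in any library, against 14.9% of those with fewer than 5. A region was called in NC, sh1 and sh4 in 26.7%, 14.4% and 12.3% of the former and 68.9%, 63.7% and 63.8% of the latter. These shares were not matched for gene length. The limits of 10 and 5 neighbours were set after the values had been seen. The parts of gene density and of gene length in the values above were not tested.

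Other lysine demethylases, H3K36 methyltransferases, genes with a CXXC finger and partners of KDM2B were read in the same way. These lists are not confined to genes that act on H3K36, and were chosen with earlier results of these data known. Among 18 other lysine demethylases, 15 windows held a KDM2A peak with an FDR under 0.05 and 8 had lower H3K36me2 coverage in both hairpins, with 0 higher in both. Over all gene windows these shares were 56.6%, 26.2% and 8.54%, and no list was tested against them. They were not matched for gene length, and genes without a region in NC, which cannot be lower, are counted in them. Of the 18 genes, 9 had a region in NC. KDM4D and KDM4E, the short relatives without PHD and Tudor domains, are neighbours with overlapping windows and had 1 such peak, the same for both. Coverage was 3.66%, 0% and 0% in NC, sh1 and sh4 at KDM4D and 0% throughout at KDM4E. KDM8, a JmjC protein described as an H3K36me2 demethylase, had 2 such peaks and coverage of 1.69%, 0% and 0%. The range was widest at PHF2, an H3K9 demethylase gene, with 8.28%, 0% and 0%, followed by KDM3A (5.14%, 0%, 2.95%), KDM6A (4.83%, 0%, 1.00%) and JMJD1C (6.64%, 3.45%, 7.79%).

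A list of 8 genes described as H3K36 methyltransferases was read next, whether or not they place the dimethyl mark. Of these 8 genes, 1 was lower in both hairpins and 2 were higher in both (26.2% and 8.54% of all genes), and 3 held a KDM2A peak that passed (56.6% of all). The 2 higher in both were SMYD2 and ASH1L, which both lie on the long arm of chromosome 1. ASH1L, named here after its values were seen, had 1.40% in NC, 3.42% in sh1 and 1.52% in sh4. SETD2, which trimethylates H3K36, had 6.84% in NC, 0.966% in sh1 and 0% in sh4, and SMYD2 1.92%, 2.82% and 11.7%. SETD3 had 0%, 4.45% and 0%, and SETMAR 2.28%, 0% and 2.99%. NSD1, NSD2 and NSD3, named here after their values were seen, had 0% in all 3 libraries. Of 10 genes with a CXXC finger, 3 were lower in both and 1 higher in both, close to the shares over all genes, and 6 held a passing peak. TET3, a 5-methylcytosine dioxygenase gene, had 5.32%, 0% and 0%, and CXXC4, an inhibitor of Wnt signalling, 6.16%, 11.8% and 20.9%. The neighbours CXXC1 (3.80%) and MBD1 (3.48%) shared 1 region of 4000 bp, in sh1 alone. Of 9 partners of KDM2B in the variant Polycomb complex, 1 was lower and 1 higher in both, and 6 held a passing peak. The E3 ligase gene RNF2, on the long arm of chromosome 1, had 3.95%, 0% and 28.3%. RYBP had 10%, 1.98% and 10.5%, YAF2 3.42%, 6.51% and 4.42%, and PCGF1 0%, 2.92% and 0%. Median peak density was 19.1, 15.2, 17.9 and 19.3 per 100 kb in the 4 lists, beside 19.0 for the 5 genes and 19.8 for all.

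Genes whose window coverage over the 3 H3K36me2 libraries was most like that of a demethylase gene were found among windows of like length, by the sum of absolute differences. For KDM4C these were GULP1 (4.85%, 4.60% and 4.65% in NC, sh1 and sh4, a sum of 1.44 percentage points), PPP3CA (1.52 points) and SUMF1 (1.94 points). For KDM4A they were KLHL6 (0.249 points), KCNS3 (0.260 points) and ACP1 (0.325 points), each at 0% in sh4. For KDM2A they were AKAP10, MYO1H and LRRK1, each with 0.922% to 0.927% in NC and 0% in both hairpins.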

How the data were processed

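The authors deposited 1 peak list per immunoprecipitated library, and the 4 inputs were not analysed here as libraries. Per the submitters' processing notes, the tools were SICER, MACS2 and Bowtie 1.1.2, with no role given to each, and the build was GRCh38 (hg38). In the deposited H3K36me2 lists the regions lie on a 200 bp grid, and their fold is a linear ratio of IP to background. The deposited FDR and p-values come from the authors' caller, with a highest FDR of 1.00e-05 for H3K36me2 and 0.869 for KDM2A. The deposited pileup of KDM2A is a signal, and the depth of that library is unknown. The deposited score was not used, being derived from the fold.

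IP and input reads of each H3K36me2 region were recovered from its fold and Poisson p-value, and 100% came out whole within 0.001 (IP) or 0.01 (input). A KDM2A peak was assigned by its midpoint. Coverage is the percent of a length inside regions. Gene positions and promoters came from RefSeq tables of GRCh38.p14. In them 679 genes, 153 of them protein-coding, were listed out of order of position and were left out. They were taken to lie on alternate or unplaced sequences, which was not checked. Genome density used the 2909 Mb of 100 kb tiles with at least 1 peak. Intervals are 95% exact Poisson for counts and exact binomial (Clopper-Pearson) for shares and folds. Python 3.11.15 with numpy 2.4.6, pandas 2.3.3 and scipy 1.17.1 was used. The code for coverage, distance and recovery of IP reads was tested on simulated data, and the code for the 95% intervals was not.

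The members, lists and rules were chosen with earlier results of these data known. Named genes were the 5 members, genes in the flanks that hold a passing peak or a region, KDM4D, KDM4E and KDM8, up to 4 genes per list with the widest range of coverage, and the 3 most alike per member at least 1 Mb away. Outside these rules, NSD1, NSD2, NSD3 and ASH1L were named after their values were seen. Alternatives were other FDR and fold limits, flanks and overlap rules.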

Additional observations from a re-analysis of the deposited data

How the results depend on the processing

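With 1 library per group no replicate could be left out. No paired analysis was possible because each group holds 1 library and no test was made. The ratio of KDM2A peak density in the 5 windows to the genome, 1.08, fell to 0.874 (0.351 to 1.80; 7 peaks) with an FDR under 0.05 and to 0.766 (0.468 to 1.18; 20 peaks) with the 10% of peaks of highest fold. It was 1.07 to 1.11 with other flanks, gene bodies alone or any overlap. H3K36me2 coverage moved more. With regions at or above the control's median fold it was 0.305% in NC, 1.01% in sh1 and 0.995% in sh4, which turns the order of control and hairpins. That limit favours the hairpins, since over the whole lists it kept 9852 regions of NC, 11918 of sh1 and 13090 of sh4. With the 9750 regions of smallest p-value from each list, coverage was 1.58%, 0.584% and 0.597%. In NC, sh1 and sh4 it was 2.24%, 2.20% and 1.62% with 20 kb flanks, 2.63%, 2.23% and 1.51% with 100 kb, and 2.46%, 2.44% and 1.73% over gene bodies, so the gap between NC and sh1 closed with 20 kb flanks and in bodies. The number of genes below NC in both hairpins, 3, was 1 with the fold limit (KDM2A), 1 over gene bodies (KDM4C), 2 with 20 kb or 100 kb flanks and 3 with equal lists. Of 105 further values for single genes, 36 could only be 0, since the alternative takes a subset of a coverage already at 0, and say nothing of stability. Of the other 69, 41 stayed within the 95% interval of the value reported and 28 left it. For coverage, that interval counted each 200 bp step of the grid separately, although steps inside 1 region are not independent. Those intervals are therefore too narrow, and the 2 counts are no measure of stability. A region's fold rests on 35 to 244 input reads in these windows, so most intervals overlap.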
